A study of Mus musculus with 4 samples.

Results

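Interferon response genes are genes that cells switch on after interferons bind their receptors. Here they were a set of 37 mouse genes, taken as the lines of the authors' peak annotation in which a promoter or distal peak of open chromatin is assigned to one of these genes. Of the 37 genes, 35 had at least 1 assigned peak in either library, out of 25458 genes with an assigned peak in all. They received 156 gene-peak assignments in the wild-type and 183 in the Mertk knockout library, on 153 of 72302 and 181 of 106319 peaks.

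The study compared frozen livers of wild-type and Mertk knockout mice, all of which had undergone bile duct ligation, a surgical block of bile outflow used as a model of cholestatic liver fibrosis. Mertk encodes a receptor tyrosine kinase with which macrophages engulf dying cells. Nuclei were read with the 10x Genomics Multiome assay, which captures RNA and transposase-accessible DNA (ATAC) from the same droplet, and each genotype had 1 ATAC library. With 1 library per genotype there was no replicate and no test between genotypes, so all differences describe these libraries. The labels give neither the age, sex and number of the animals, nor the time after ligation, nor the knocked-out part of Mertk. No untreated or sham-operated liver is among the samples, so both groups carry the ligation.

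Type I and type III interferons act through the factor ISGF3, which contains Stat2 and Irf9 and binds the interferon-stimulated response element (ISRE) in target promoters. Interferon gamma acts mainly through the gamma-activated sequence (GAS) in its target promoters, and through Irf1, which that pathway induces. The target genes encode antiviral effectors, GTPases that attack membranes around intracellular pathogens and sensors of foreign nucleic acid. They also encode the transcription factors themselves, and feedback and other regulators.

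The promoters of several of these genes carry the ISRE motif in a form that can be read directly. Each sequence shown is the run of 170 bases before the transcription start, 5′ to 3′ on the gene's strand, from RefSeq on GRCm38.p6, the assembly behind the mm10 coordinates of the files. Capitals mark ISRE-type matches, which are GAAA, any 2 bases and GAAA again, read on either strand, so that a match on the opposite strand reads TTTC, any 2 bases and TTTC. Isg15 (chr4:156200819-156200988, minus strand) is shown because its promoter peak was called for wild type and not for the knockout, and Ifit1 (chr19:34640719-34640888, plus strand) and Ifit3 (chr19:34583359-34583528, plus strand) because these neighbours differed in opposite directions away from their promoters.
Isg15: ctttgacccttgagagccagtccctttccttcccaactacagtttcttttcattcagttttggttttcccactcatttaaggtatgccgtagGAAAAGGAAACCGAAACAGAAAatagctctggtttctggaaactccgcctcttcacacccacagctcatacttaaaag
Ifit1: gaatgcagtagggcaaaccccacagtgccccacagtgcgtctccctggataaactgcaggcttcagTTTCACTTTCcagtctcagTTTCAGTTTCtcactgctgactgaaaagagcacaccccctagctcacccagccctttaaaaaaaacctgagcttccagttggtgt
Ifit3: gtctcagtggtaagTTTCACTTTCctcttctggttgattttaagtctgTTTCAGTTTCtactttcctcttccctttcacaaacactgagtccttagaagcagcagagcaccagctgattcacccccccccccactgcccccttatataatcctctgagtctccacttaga
In Isg15 the capitals are 3 overlapping matches, which lie 66 to 78 bases upstream of the start, counted from the first base of each match. Ifit1 has 2 separate matches, at 85 and 104 bases, and Ifit3 has 2, at 122 and 156 bases. Oas1a (chr5:120907526-120907695, minus strand), Bst2 (chr8:71537473-71537642, minus strand), Gbp2 (chr3:142620493-142620662, plus strand) and Irgm2 (chr11:58214807-58214976, plus strand) stand for the effector and GTPase promoters whose peaks were called in both libraries.
Oas1a: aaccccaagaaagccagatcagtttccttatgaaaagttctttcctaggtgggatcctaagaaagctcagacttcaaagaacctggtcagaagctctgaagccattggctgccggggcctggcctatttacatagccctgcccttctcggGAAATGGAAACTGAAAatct
Bst2: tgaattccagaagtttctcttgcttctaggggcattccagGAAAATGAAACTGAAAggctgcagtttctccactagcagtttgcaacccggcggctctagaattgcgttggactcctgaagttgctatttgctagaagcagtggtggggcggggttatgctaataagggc
Gbp2: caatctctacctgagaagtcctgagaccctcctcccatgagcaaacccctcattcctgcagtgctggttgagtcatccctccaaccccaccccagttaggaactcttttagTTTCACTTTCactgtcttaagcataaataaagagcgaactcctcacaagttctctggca
Irgm2: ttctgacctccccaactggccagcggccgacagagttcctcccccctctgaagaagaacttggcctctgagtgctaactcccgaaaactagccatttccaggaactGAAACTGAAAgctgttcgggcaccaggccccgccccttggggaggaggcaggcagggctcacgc
The promoter of Irf1 (chr11:53769844-53770013, plus strand) held no ISRE-type match and is shown for its GAS-type match to TTCNNNGAA, in capitals, 90 bases upstream.
Irf1: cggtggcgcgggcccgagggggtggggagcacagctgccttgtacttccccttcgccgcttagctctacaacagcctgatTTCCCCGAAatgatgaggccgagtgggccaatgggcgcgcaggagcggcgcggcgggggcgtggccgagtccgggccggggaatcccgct
These sequences were chosen from the matching genes after their values were seen, and a match describes letters in a window, not a bound site.

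Promoter windows of 300 bases, 250 before and 50 after the start, were on hand for 26 of the 37 genes. An ISRE-type match was present in 16 of the 26 (61.5%), against 1079 of 27025 genes (3.99%) in the whole promoter table. A stricter form, with a C directly after the second GAAA, was present in 12 of 26 (46.2%), against 0.944% of all genes. The GAS-type letters were present in 8 of 26 (30.8%), against 9.55%, and a composite type read by PU.1 with an Irf factor, GGAA, any 2 bases and GAAA, in 6 of 26 (23.1%), against 3.16%. All patterns were searched on both strands. The genes were listed as interferon targets, so a high share of these motifs is not independent of how the set was chosen. By role, ISRE-type matches were found in all 6 GTPase promoters on hand, in 7 of 12 effector promoters, in 2 of 3 sensor promoters, in 1 of 4 transcription factor promoters (Stat2) and in 0 of 1 regulator promoters (Xaf1).

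The 24 ISRE-type matches lay a median of 69 bases upstream of the start, from 222 bases upstream in Stat2 to 32 bases downstream in Ifih1. Of these matches, 3 overlapped a composite-type match and 1 overlapped a GAS-type match, in Bst2. All 24 lay inside a wild-type peak and 20 inside a knockout peak. The other 4 were the 3 matches of Isg15, where no knockout peak was called, and the match of Gbp5, where the knockout peak began 1 base past it. Of the 9 GAS-type matches, 8 lay in a wild-type peak and 7 in a knockout peak.

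**Figure D1:**
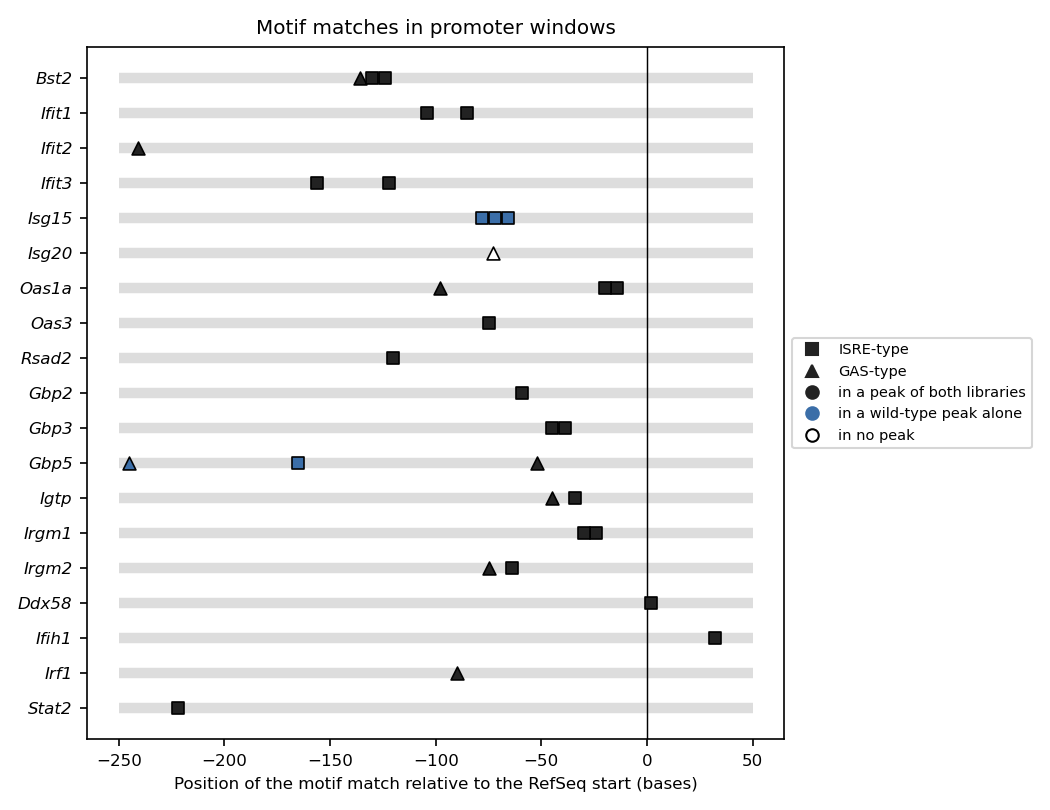
Position of each ISRE-type match (squares) and GAS-type match (triangles) relative to the RefSeq transcription start, in bases, for the genes with a match; grey bars are the 300-base windows searched. Black symbols lie in a peak of both libraries, blue symbols in a wild-type peak alone and open symbols in no peak. All 24 ISRE-type matches lie in wild-type peaks and 20 of them also in knockout peaks, and the blue squares are those of Isg15 and Gbp5.

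The libraries differed in depth and in the cell types whose genes had peaks. The wild-type library had 5828 called nuclei with 40858512 ATAC fragments, and the knockout library 5339 nuclei with 83996145, 2.06 times as many. Called peaks covered 61.8 and 91.3 Mb. The targeted gene had a promoter peak for both genotypes and 10 and 13 peaks in all, which does not check the genotype. Of 8 hepatocyte marker genes, 4 had 0 peaks in the wild-type library (Alb, Cps1, Cyp2e1 and Serpina1a), although the tissue is labelled as liver, and none had 0 in the knockout library. The list had 13 wild-type and 76 knockout peaks, and 7 stellate cell and fibroblast markers had 8 and 59 in the same order. Macrophage and monocyte markers had 78 and 70 peaks with none at 0, and neutrophil markers 33 and 32. These totals hide differences between genes. Vsig4 (8 and 1), Itgam (15 and 8) and Ccr2 (9 and 5) had fewer peaks in the knockout library. Clec4f (2 and 5), Csf1r (8 and 10), Cx3cr1 (24 and 27) and Ly6c2 (2 and 4) had more, and Adgre1 had 10 in each. Of the neutrophil markers, Ltf, Csf3r and Cebpe had fewer and the others more. T and natural killer cell markers had 21 and 10, with Klrk1 and Nkg7 at 0 in the knockout library. In that list the T cell genes Cd3d, Cd3e, Cd4 and Cd8a had equal numbers in both libraries. The part of these shifts in the results that follow was not tested. Peaks were called over all nuclei of a library. The peak lists therefore cannot tell apart fewer nuclei of a type, less open chromatin per nucleus and lower depth. The nuclei were not assigned to cell types from their RNA here.

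Accessible length was the summed width of the peaks assigned to a gene. Over the set it was 129.6 kb in wild type and 152.7 kb in the knockout, a ratio of 1.18. All peaks of the libraries, those assigned to no gene included, gave 1.48. Of the 35 genes with a peak, 17 had more peaks in the knockout library (60.3% of all genes did), 8 had more in the wild-type library (16.2% of all) and 10 had equal numbers (23.5% of all). Genes averaging 2 kb or more over both libraries were compared as log2 of knockout over wild-type length, after adding a pseudocount of 1 kb to both, and the median over all 14692 such genes, 0.39, was subtracted. This centred log2 ratio could be given for 29 of the 37 genes. Values from 1 upward were called higher and values from -1 downward lower, a size threshold that tests nothing. From here on, pairs of peak numbers or lengths give wild type first and knockout second, and a value in parentheses after them is the centred log2 ratio. In the knockout library 0 of the 29 were higher, where 10.3% of all measured genes were, and 2 (6.90%) were lower, where 4.08% of all were. These were Ifit3 and Ifi44. A share this near the background is no result about the set. The 29 values ran from -1.33 to 0.73 with a median of -0.16, and 20 of 29 (69.0%) lay below the median gene, where 50% of all genes do by construction. Without centring the median was 0.23.

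**Figure D2:**
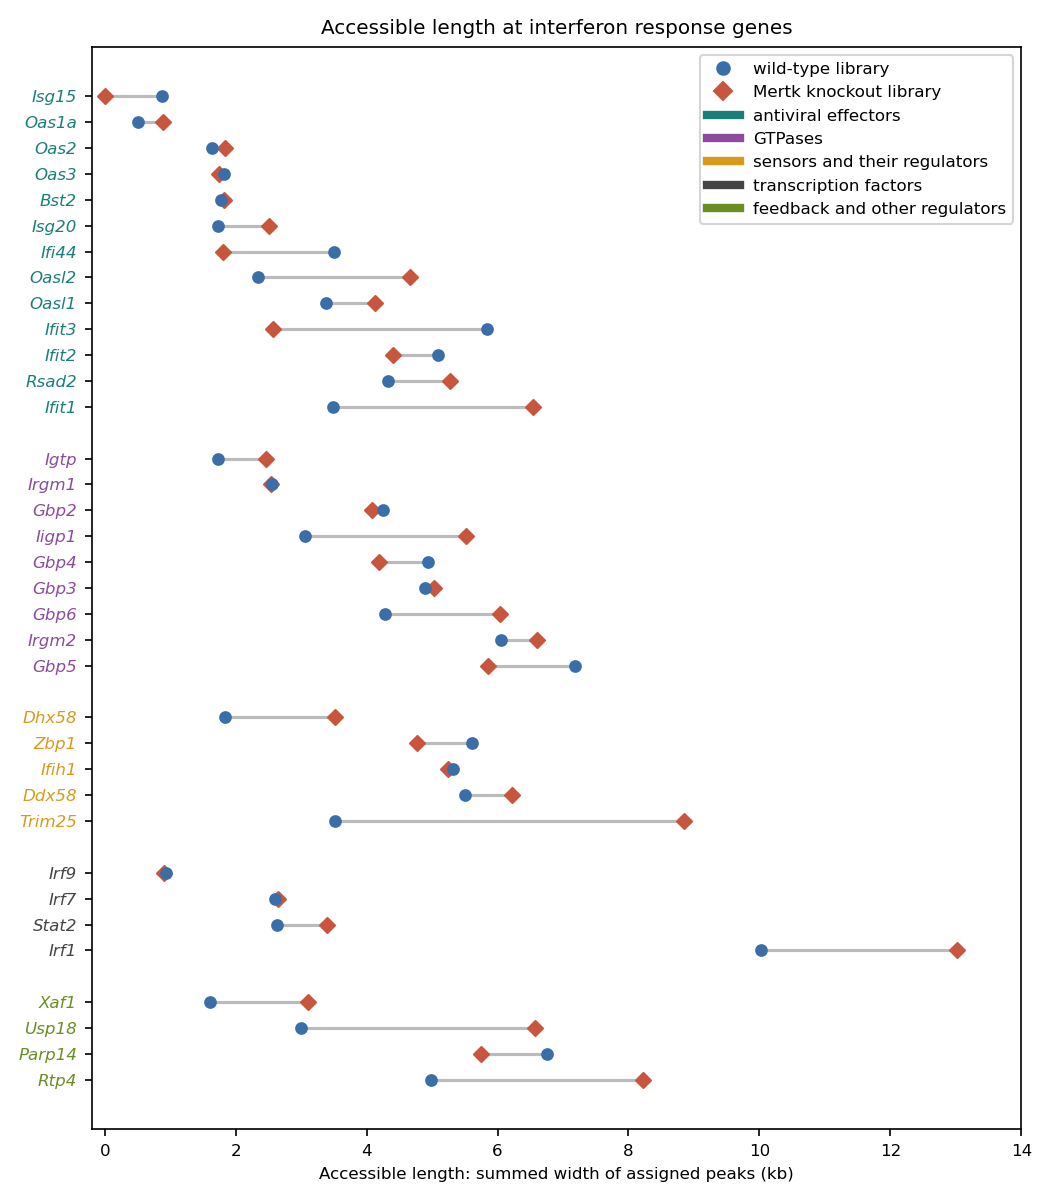
Accessible length of the 35 genes with a peak, in kb, in the wild-type library (blue circles) and the Mertk knockout library (red diamonds), with gene names coloured by role and grey lines joining the values of a gene. Ifit3 and Ifi44 have their knockout value well to the left of the wild-type value, and Trim25, Usp18, Rtp4 and Ifit1 well to the right.

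Among the antiviral effectors, the Ifit genes differed from one another although they lie in 1 cluster on chromosome 19. The Ifit1 protein binds viral RNA that lacks the host's cap modification. Ifit3 (chr19:34583119-34588982) had 7 wild-type peaks over 5.84 kb and 3 knockout peaks over 2.57 kb, a centred log2 ratio of -1.33, or 2.52-fold lower on that scale. All 3 knockout peaks overlapped wild-type peaks, and the other 4 wild-type peaks had no counterpart. These 4 were all distal, 1 of them also assigned to Ifit2, and they lay between chr19:34571071 and chr19:34589880. The promoter peak of Ifit3 was called in both libraries at nearly the same place (902 and 894 bp wide, overlapping by 893 bp), so the difference lay outside the promoter window with its 2 ISRE-type matches.

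Ifit2, the upstream neighbour of Ifit3, had 6 and 5 peaks and a ratio of -0.57. Ifit1 (chr19:34640889-34650009) went the other way, with 4 peaks over 3.49 kb and 8 over 6.55 kb, a ratio of 0.36. Its 4 wild-type peaks were all matched, and the 4 knockout peaks without a counterpart lay 15467 to 44474 bp past the start, 3 of them also assigned to Slc16a12. With peaks assigned to 1 gene alone, the ratio was 0.09 for Ifit1, close to the median gene, and -1.30 for Ifit3. Across the 3 Ifit genes the sum was 17 wild-type and 16 knockout peaks, a length ratio of 0.938.

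Ifi44, an effector gene induced by type I interferon, had 4 peaks over 3.50 kb and 2 over 1.81 kb, a ratio of -1.07, which lies just past the rule of size, while Gbp5 at -0.65 was the next lowest value. Its promoter peak was shared. The 3 wild-type distal peaks, 833, 3306 and 33070 bp from the start per the authors' annotation, had no counterpart, and the 1 knockout distal peak lay 145829 bp away.

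**Figure D3:**
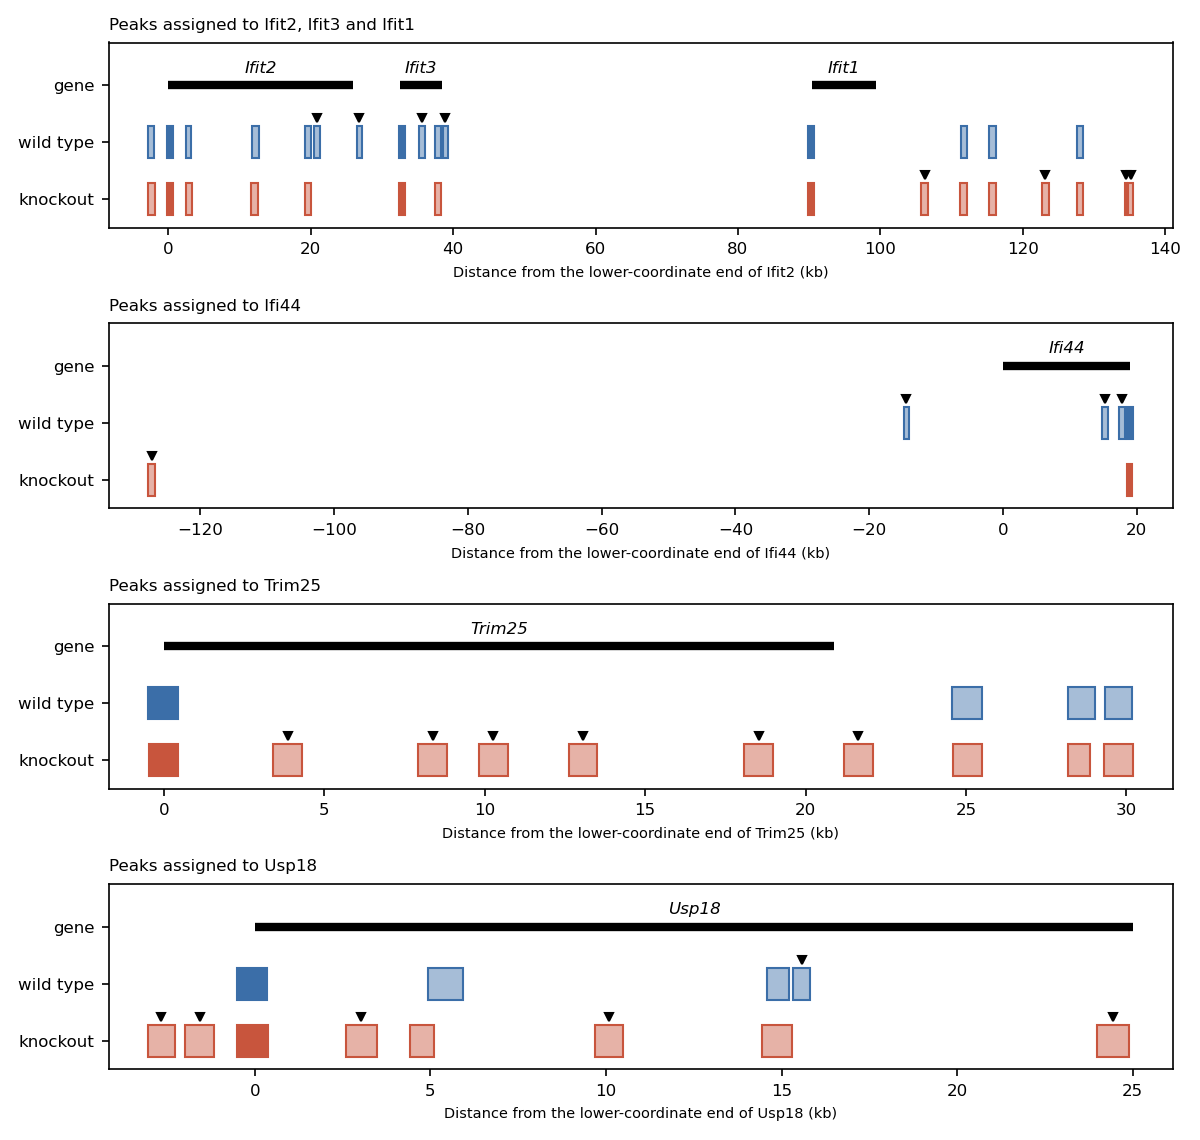
Peaks assigned to Ifit2, Ifit3 and Ifit1, to Ifi44, to Trim25 and to Usp18, drawn to scale by distance in kb from the lower-coordinate end of the first gene named; black bars are genes, dark boxes promoter peaks, pale boxes distal peaks, and black triangles mark peaks that do not overlap any peak of the other library. Ifit3 has 4 such wild-type peaks and 0 such knockout peaks, and Trim25 has 0 and 6.

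Isg15, which encodes a ubiquitin-like protein that is attached to viral and cellular proteins, was the one gene of the set whose promoter peak was seen in wild type alone. It had 1 wild-type peak, of 879 bp at chr4:156200393-156201271, which covered the whole promoter window with its 3 ISRE-type matches, and the knockout library had 0 peaks for the gene and 0 bases of peak in that window. In all, 34 of the 37 genes had a promoter peak in either library. For 32 of these (94.1%) it was present in both libraries, beside 81.4% of the 17563 genes with a promoter peak. For 1 (2.94%) it was found in wild type alone, beside 3.17% of all, and for 1 (2.94%) in the knockout alone, beside 15.4%. The 0 in Isg15 is the absence of a called peak, and the reads behind it were not analysed here.

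Oasl2, of the oligoadenylate synthetase family that responds to double-stranded RNA, had 3 peaks over 2.34 kb and 6 over 4.66 kb (0.37), the highest value among the effectors, and none of them was called a promoter peak. Its nearest peaks began 163 bp (wild type) and 245 bp (knockout) past the start. Oasl1 had 4 and 5 peaks (-0.16). Oas1a had 1 peak in each library, Oas2 and Oas3 had 2 in each, and all of these were shared. The family as a whole had 12 and 16 peaks. Rsad2, which encodes viperin, had 5 and 6 peaks (-0.16), and Isg20, an exonuclease gene, had 2 and 3 (-0.03). Bst2, which encodes tetherin, had 2 peaks in each library, with the promoter peak shared and the distal peak placed differently. Isg15, Oas1a, Oas2, Oas3, Bst2 and the factor Irf9 were below 2 kb and so have no ratio, as have Mx1 and Mx2.

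Mx1 and Mx2, classical antiviral GTPases that are listed here with the effectors, had no line in either annotation. RefSeq classes both as transcribed pseudogenes in this assembly. Peaks nonetheless overlapped them. Across one end of Mx1 lay 1 peak in each library (chr16:97462608-97463464 and chr16:97462674-97463492), sharing 791 bp. Mx2 overlapped 1 wild-type and 3 knockout peaks, of which 1 in each library was shared over 587 bp. All of these peaks were assigned to Fam3b by the authors' annotation.

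The GTPases had peaks in about equal number in both libraries. The 9 genes had 47 and 52 peaks and a length ratio of 1.09, with a median centred log2 ratio of -0.36, and 7 of the 9 lay below the median gene. Of the 5 guanylate-binding proteins, which coat pathogen-containing vacuoles, Gbp5 had 9 peaks over 7.18 kb and 7 over 5.85 kb (-0.65), and all 7 knockout peaks overlapped wild-type peaks. Its promoter peak was called at chr3:142496458-142497201 for wild type and chr3:142496779-142497416 for the knockout, where it left out the ISRE-type match at 165 bases upstream. Gbp4 had 6 and 5 peaks (-0.59), Gbp2 5 and 5 (-0.44) and Gbp3 6 and 6 (-0.36). Gbp6 was the exception in the family, with 5 peaks over 4.29 kb and 7 over 6.03 kb (0.02), a value at the median gene. Together the 5 Gbp genes had 31 and 30 peaks.

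The immunity-related GTPases, which act on the same kind of vacuole, had 16 and 22 peaks. Irgm1 had 3 peaks in each library, all shared (-0.40). Irgm2 had 7 and 9 (-0.29), and Igtp, whose promoter peak is also assigned to Irgm2, had 2 and 3 (-0.05). Iigp1 had 4 peaks over 3.06 kb and 7 over 5.52 kb (0.29) and was the one gene whose promoter peaks, 2 in number, were called for the knockout alone. This call depends on which start is used. A wild-type peak that the authors' annotation places upstream as distal covers the RefSeq start of the gene, and no knockout peak does. Of its 10 peak positions 1 was shared. Some of the Gbp, Irg, Oas and Ifit genes have near-identical copies, and which members this affects was not examined. The sources used here do not say how reads that fit several copies were treated, so peaks at such genes are uncertain.

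Among the sensors, Trim25 stood at one end of the range. It encodes the ubiquitin ligase that activates the RNA sensor RIG-I. Trim25 (chr11:88999403-89020294) had 4 peaks over 3.52 kb and 10 over 8.85 kb, a centred log2 ratio of 0.73, the highest of the set and short of the rule of size. Its 4 wild-type peaks, the promoter peak among them, were all shared, and the 6 knockout peaks without a counterpart lay 3439 to 21213 bp past the start, within the gene or just beyond it. Ddx58, the gene of RIG-I itself, had 7 and 8 peaks (-0.24), with 4 positions in both libraries, 3 in wild type alone and 4 in the knockout alone. Ifih1, which encodes the RNA sensor MDA5, had 6 peaks in each library (-0.41), 4 of them shared.

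Dhx58, which encodes LGP2, a regulator of both, had 2 and 4 peaks (0.28), with a promoter peak also assigned to Kat2a. Zbp1, a sensor of Z-form nucleic acid that triggers cell death, had 7 peaks over 5.61 kb and 6 over 4.77 kb (-0.59), with 6 positions shared and 1 in the wild-type library alone. The 5 sensor genes together had 26 and 34 peaks, a length ratio of 1.31, and Trim25 alone supplied 6 of the difference of 8.

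The transcription factors had most of their peaks in common between the libraries. Irf1 had the most peaks of any gene in the set, 13 over 10.0 kb and 16 over 13.0 kb (-0.05), at 18 positions of which 11 were common. Irf7, which amplifies the type I response, had 3 peaks over 2.60 kb and 3 over 2.65 kb, all shared, and its value of -0.37 reflects the subtraction of the median gene. Stat2 had 3 and 4 peaks (-0.12), all 3 wild-type peaks being shared, and its promoter peak is also assigned to Apof. Irf9 had 1 shared peak in each library, of 929 and 909 bp.

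The regulators were the role class with a median above the median gene, 0.25 over 4 genes. Usp18, which removes Isg15 from proteins and blocks the type I receptor, had 4 peaks over 2.996 kb and 8 over 6.57 kb, a ratio of 0.53. Its promoter peak was shared, as were 2 further positions, while 5 knockout peaks and 1 wild-type peak had no counterpart. Rtp4, a chaperone-like protein gene induced by type I interferon, had 6 peaks over 4.98 kb and 9 over 8.22 kb (0.23), though 1 knockout peak, called as a second promoter peak, is also assigned to Masp1 and Gm45338. Xaf1, which promotes apoptosis, had 2 and 4 peaks (0.26). Parp14, an ADP-ribosyltransferase, went the other way with 8 peaks over 6.75 kb and 7 over 5.75 kb (-0.59), and 3 of its 12 positions were shared.

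**Figure D4:**
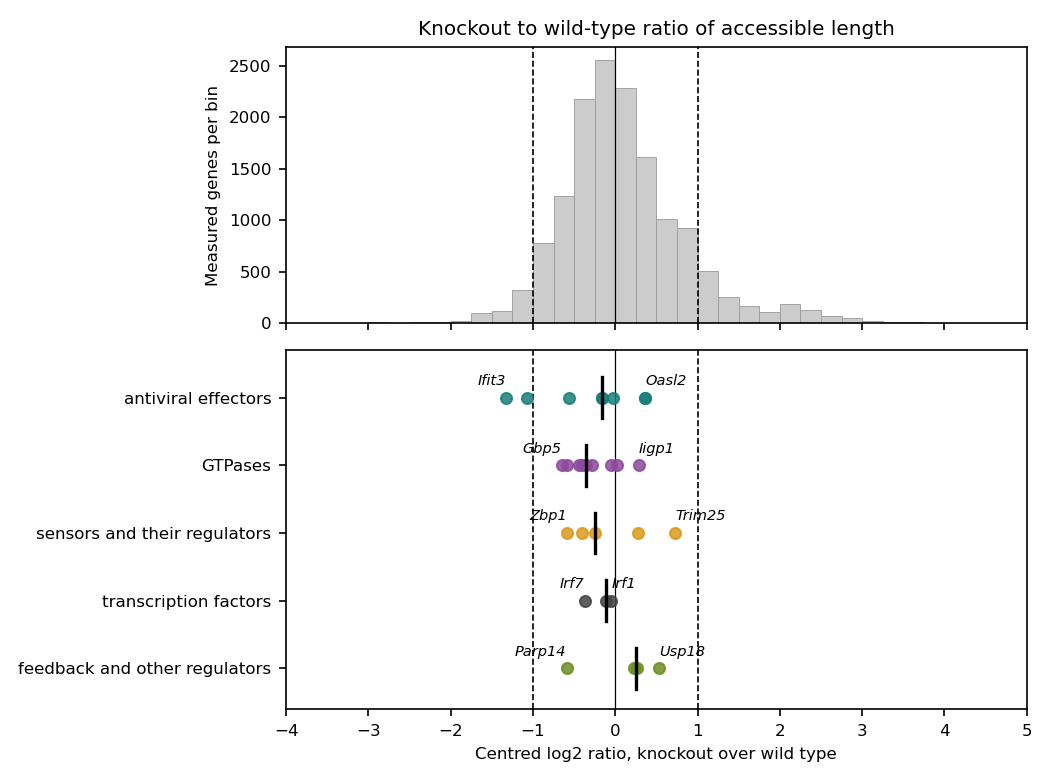
Centred log2 of knockout over wild-type accessible length: the upper panel counts all 14692 measured genes in bins of 0.25, the lower panel shows the 29 measured interferon response genes by role, with a black tick at each class median and dashed lines at 1 and -1. Ifit3 (-1.33) and Ifi44 lie beyond -1, none lies beyond 1, and class medians run from -0.36 for the GTPases to 0.25 for the regulators.

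Side by side, the class medians were -0.36 for the GTPases (9 genes), -0.24 for the sensors (5), -0.16 for the effectors (8), -0.12 for the transcription factors (3) and 0.25 for the regulators (4). The effectors had the widest range, from -1.33 to 0.37, and the transcription factors the narrowest. Ratios of summed length were 1.05 for the effectors, 1.09 for the GTPases and 1.23 for the transcription factors. For the sensors the ratio was 1.31 and for the regulators 1.45. The 1.48 of the libraries as a whole lay above all of these but also counts peaks assigned to no gene. The median measured gene had 1.31 with the pseudocount, which the regulators exceeded. With 3 to 9 measured genes in a class and no replicate, no difference between classes was tested.

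Overlap with the other library, by at least 1 bp, was next counted peak by peak. Of 39 wild-type promoter peaks 37 were shared (94.9%, exact 95% interval 82.7 to 99.4), beside 93.5% of all wild-type promoter peaks, and 2 were not (6.49% of all were not). Of 41 knockout promoter peaks 37 were shared (90.2%, 76.9 to 97.3), beside 78.9%, and 4 were not (21.1% of all were not). Of 114 wild-type distal peaks 79 were shared (69.3%, 60.0 to 77.6), beside 67.1%, and 35 were not (32.9% of all were not). Of 140 knockout distal peaks 79 were shared (56.4%, 47.8 to 64.8), beside 43.7%, and 61 were not (56.3% of all were not). The intervals are exact binomial intervals, cover counting error only and treat peaks of 1 gene as independent, which they are not. Wild-type shares thus lay close to those of all peaks. For knockout peaks the interval of the promoter share includes the value of all peaks, and that of the distal share lies above it, with no test of the difference made.

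The 2 unshared wild-type promoter peaks were those of Isg15 and a second promoter peak of Parp14, and the 4 unshared knockout ones were 2 of Iigp1 and 1 each of Igtp and Rtp4. Among distal peaks of the knockout library, the shared part was 14 of 20 for the transcription factors (70.0%, 45.7 to 88.1), 25 of 38 for the GTPases (65.8%, 48.6 to 80.4), 18 of 31 for the effectors (58.1%, 39.1 to 75.5), 14 of 28 for the sensors (50%, 30.6 to 69.4) and 8 of 23 for the regulators (34.8%, 16.4 to 57.3). These intervals overlap between neighbouring classes. Among wild-type distal peaks the transcription factors again had the highest share, 14 of 16, and the regulators the lowest, 8 of 15. Irf1 alone supplied 15 of the 20 knockout and 12 of the 16 wild-type distal peaks of the transcription factors, so their share is largely that of 1 gene.

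**Figure D5:**
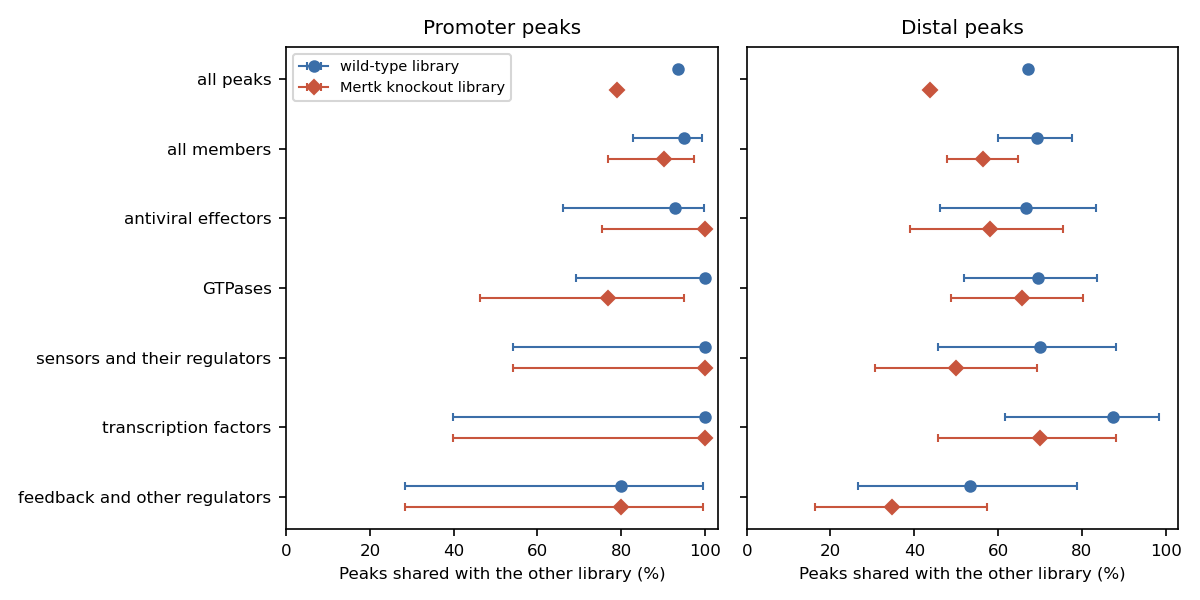
Share of promoter peaks (left) and distal peaks (right) that overlap a peak of the other library, in percent, for all peaks and for the interferon response genes by role; bars are exact binomial 95% intervals for counting error. For distal knockout peaks the set lies at 56.4% beside 43.7% for all peaks, with classes from 34.8% (regulators) to 70.0% (transcription factors).

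Merged over both libraries, the 35 genes had 219 peak positions, a position being counted once for each gene it is assigned to. Of these, 116 (53.0%) had a peak in both libraries, beside 41.3% of such positions over all genes. In wild type alone there were 38 (17.4%), beside 15.8%, and in the knockout alone 65 (29.7%), beside 42.9%. All positions were shared for 6 genes (Oas1a, Oas2, Oas3, Irgm1, Irf7 and Irf9), as for 16.1% of all genes with a peak. Unshared positions came from wild type alone for 5 genes (Ifit2, Ifit3, Isg15, Gbp5 and Zbp1; 10% of all genes), from the knockout alone for 10, among them Ifit1, Oasl2, Dhx58, Trim25, Stat2 and Xaf1 (40.3% of all genes), and from each library for 14 (33.6% of all genes). For shared and unshared distal peaks of each library, the median distance in the authors' annotation was 9.02 to 10.4 kb. For most peaks this distance is counted from a transcription start, so peaks can lie inside the gene, as some of Trim25 do. The median width of these distal peaks was 850 to 868 bp. Promoter peaks of the set had median widths of 871 bp over the 39 wild-type peaks and 869 bp over the 41 knockout peaks. Promoter width summed per gene was compared for the 32 genes with a promoter peak in both libraries. It was larger in the wild-type library for 15 of the 32 and in the knockout library for 17. These sums also reflect unequal numbers of promoter peaks in Parp14 (1764 and 915 bp), Igtp (837 and 1630 bp) and Rtp4 (903 and 1773 bp). The promoter peak of Oas1a was 514 and 884 bp wide.

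A list of 80 further genes of the pathway gave the wider context. Of these, 76 had a peak and 58 were measured, with 2 higher, 4 lower and a median of -0.25, beside the 10.3% and 4.08% of all genes given above. The GTPase gene Gbp10 had the highest value of the list, with 1 and 5 peaks (1.16). Ifnk, an interferon of the skin, had 7 and 17 peaks (0.90) and no promoter peak. The 4 lower genes were the ligand Ifng, with 6 peaks over 5.07 kb and 1 over 0.906 kb (-2.06), Ifi203, of the DNA-binding p200 family, with 5 and 1 (-1.72), Trim30a with 8 and 3 (-1.51) and the GTPase gene Tgtp1 with 6 and 3 (-1.20). Ifng is made mainly by T and natural killer cells, whose marker list had 21 wild-type and 10 knockout peaks. Within that list Klrk1, Ncr1, Nkg7 and Gzmb had fewer peaks in the knockout library, and Cd3d, Cd3e, Cd4 and Cd8a had equal numbers. The part of that shift in the Ifng value was not tested.

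By step of the pathway, the 6 receptor genes had a median of -0.21 and the 5 measured Irf factors outside the set -0.32, with none past the rule in either list. The 9 measured genes of the inducing pathway, which runs from nucleic acid sensing to interferon, had -0.31, and the 27 measured further target genes -0.38. The 4 feedback genes had 0.33, with Ptpn2 at 3 and 9 peaks (0.90) and Socs1 at 7 and 14 (0.52). Of these 4 genes, 3 lay above the median gene and 1 below, Ptpn6 (-0.39), where 50% of all genes lie below. None of them was past the rule of size. Of the 80 genes, 11 had no promoter peak in either library. Among the rest, a promoter peak was in both libraries for 62, in wild type alone for 4 and in the knockout alone for 3. Over all genes with a promoter peak the shares were 81.4%, 3.17% and 15.4%, a base that leaves out genes like the 11. The 4 were Ifng and Ifi203, given before, the kinase gene Ikbke, with 6 peaks over 5.39 kb and 7 over 5.77 kb (-0.31), and Ciita, the regulator of MHC class II genes, with 8 over 6.42 kb and 5 over 4.64 kb (-0.79). The 3 were the RNA sensor gene Tlr7, with 5 peaks over 4.34 kb and 8 over 6.56 kb (0.11), Ifitm2, with 1 and 3 peaks over 0.854 and 2.39 kb, and Cxcl9, a chemokine gene induced by interferon gamma, with 0 peaks and 4 over 2.57 kb. Ifitm2 and Cxcl9 were below the 2 kb minimum and have no ratio.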

How the data were processed

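The 37 genes, their role classes, the 80 pathway genes and the marker lists were chosen with earlier results of these data known. Per the file headers, the authors ran cellranger-arc 2.0.2 on mm10, with 1 run per library; the sources used here give no peak caller settings. The deposited lists record where each peak lies but neither its height nor a score, and the deposited annotation assigns each peak to genes as promoter or distal. Nuclei and fragments were taken from deposited per-barcode tables of raw counts. Peaks off chromosomes 1 to 19, X and Y were left out (43 wild-type and 44 knockout).

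From the files, accessible length, its centred ratio and overlaps of at least 1 bp were computed in Python 3.11.15 (pandas 2.3.3, numpy 2.4.6, scipy 1.17.1; figures with matplotlib 3.10.9). Overlaps gave the same counts in bedtools, and the ratio was tested on simulated data. A search for motifs in windows around peaks was planned and not run, since no genome was used here, and the RefSeq promoter table took its place. Of the 37 genes, 26 were matched in it by symbol. Those unmatched were Dhx58, Gbp4, Gbp6, Iigp1, Mx1, Mx2, Oas2, Parp14, Rtp4, Usp18 and Zbp1. Full values were to be given for genes at or beyond 1 or -1, those whose promoter peak stood in 1 library alone, and the 2 highest and 2 lowest of each class; of the pathway genes, for the 3 highest, the 3 lowest and any with promoter peaks for 1 genotype alone. Of the pathway genes that the rule takes, 1 is not reported here. Genes and sequences named outside that rule were chosen after their values were seen.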

Additional observations from a re-analysis of the deposited data

How the results depend on the processing

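With 1 library per genotype, no library could be left out. No paired analysis was possible because each genotype had 1 library. The count of 2 lower genes became 1 with a pseudocount of 2 kb (Ifi44 at -0.85), with a minimum of 4 kb and with distal peaks alone, where Ifit3 was left each time, and 0 with promoter peaks alone and 0 without centring, where Ifit3 had -0.94 and Ifi44 -0.68. The count of 0 higher genes became 1 without centring (Trim25 at 1.12) and 1 with promoter peaks alone (Iigp1 at 1.14). The median of the set was 0.23 without centring, and between -0.31 (minimum of 4 kb) and -0.01 (promoter peaks alone) under the centred alternatives. With centring 20 of the 29 values lay below 0, and without it 10 did. With no length minimum, Isg15 joined the lower genes. Of 196 alternative values of the genes given in full, 178 kept their sign and their side of the rule, 11 changed sign without being past it, 5 no longer passed it, 2 newly passed it and 0 past it reversed. Among summaries, 51 of 59 were labelled the same, a label that allows some change. Medians kept it with their sign and side of the rule, and shares by lying inside the binomial interval of the main value. Counts kept it when near the main count, as 3 lower genes beside 2. Isg15 and Iigp1 kept a promoter peak for 1 genotype alone under each overlap rule tried and with narrow peaks left out. The stricter overlap rules and the removal of narrow peaks add no overlaps, so they could not have made these peaks shared. Only the looser rule, which counts nearby peaks as shared, could add shared peaks. The Iigp1 call still depends on which start is used. The share of knockout distal peaks that were shared ran from 55.0% to 61.4%, beside 42.5% to 47.2% of all knockout distal peaks. For wild-type distal peaks it ran from 67.5% to 76.3%, beside 65.4% to 71.2% of all. Over a shorter stretch before the start, chosen after seeing the data, the ISRE-type share was 46.2%. The share of all genes over that stretch was not computed. Motif searches in 300 bp and 600 bp around peak midpoints and in whole peaks were not run. Peak lists hold no read counts or heights, so a position without a peak may still hold reads.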
